A study of Homo sapiens with 24 samples.

Results

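The autophagy and lysosome machinery was followed as 42 listed genes: 5 of the ULK initiation complex, 5 of the class III PI3-kinase complex, 5 of membrane growth, 10 of the conjugation systems, 4 of the ATG8 family, 5 cargo receptors, 2 transcription factors of the TFEB family and 6 genes of the lysosome. Each was matched by its symbol to 1 of the 78724 Ensembl gene IDs in the count tables. All 42 had enough counts to be tested in OCUG-1 and 41 in HuCCT1, where ULK2 was close to 0.

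Autophagy encloses cytoplasm, proteins or organelles in a double membrane and delivers them to the lysosome for breakdown. The ULK kinase complex starts it under the control of mTORC1 and AMPK, a PI3-kinase complex around beclin 1 marks the forming membrane, and lipid transfer proteins extend it. Enzymes that work like the ubiquitin system then attach ATG8 proteins such as LC3 to the membrane, where receptors with an LC3-binding motif tether the cargo. TFEB and TFE3 are transcription factors that drive genes of autophagy and of the lysosome, and cathepsins inside the lysosome digest what arrives. Transcript levels measure the supply of this machinery and not the flow of cargo through it.

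RNA sequencing covered 2 biliary tract cancer cell lines: OCUG-1, from a gallbladder cancer and grown in DMEM, and HuCCT1, from an intrahepatic cholangiocarcinoma and grown in RPMI-1640. Each line was exposed for 72 h to sorafenib at 1.25 µM, sorafenib at 10 µM, a combination of 1.25 µM sorafenib and 1 µM IACS-010759, or vehicle (matched DMSO, the solvent of both drugs, at no more than 0.1%). Sorafenib inhibits RAF and several receptor tyrosine kinases, and IACS-010759 inhibits complex I of the mitochondrial respiratory chain. Each of the 8 groups had 3 libraries from separate biological replicates, 24 in all. IACS-010759 had no arm of its own, so the combination over 1.25 µM measures it only on top of sorafenib. Its own effect and an interaction with sorafenib cannot be told apart. Line and medium differ together, so they cannot be told apart, and each disease is represented by 1 line.

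Libraries held 14388855 to 24019011 counts in OCUG-1 and 18238834 to 30693736 in HuCCT1. Of 8 biliary epithelial markers, 7 averaged over 10 CPM (counts relative to the scaled size of the library) in OCUG-1 cells at 1.25 µM, 6 in each other OCUG-1 group and 8 in every HuCCT1 group. CDH1, the E-cadherin gene, was at 1.04 ± 0.50 CPM in OCUG-1 cells at 10 µM and 3.13 ± 0.44 CPM in OCUG-1 vehicle cells, and KRT7 was at 10.8 ± 1.04 and 8.24 ± 2.00 CPM in the same groups (SD, n = 3). The summed level of the 8 markers was 1160 to 1480 CPM in OCUG-1 cells at 10 µM, 1420 to 1630 CPM in the combination and 4580 to 5380 CPM in vehicle, so this sum moved with the groups in which most of the listed genes changed. The mitochondrial share of counts moved with them too, at 5.95 ± 0.30% at 10 µM, 5.43 ± 0.93% in the combination and 12.2 ± 1.3% in vehicle. In HuCCT1 that share was 21.8, 19.4 and 12.5% in the 1.25 µM libraries 1, 2 and 3 and 11.8, 14.1 and 7.08% in those of vehicle, beside 9.88 ± 1.65% at 10 µM and 11.4 ± 1.1% in the combination. It was highest in the 1.25 µM libraries 1 and 2, on which most HuCCT1 calls at that dose rest. The part of either in the results below was not tested, and in bulk RNA fewer cells of a type and less RNA per cell cannot be told apart. Of the fibroblast markers, 2 of 6 passed 10 CPM, with sums of 61.2 to 96.8 CPM at 10 µM, 48.7 to 63.5 CPM in the combination and 139 to 159 CPM in vehicle in OCUG-1. Summed endothelial, immune and hepatocyte markers stayed at or under 7.78, 5.05 and 2.85 CPM in every library. In several arms 1 library held the highest level of most of the 42 genes: library 3 in HuCCT1 at 10 µM (29 genes), 1.25 µM (30) and vehicle (29), combination library 2 in HuCCT1 (27), and in OCUG-1 combination library 1 (30) and library 3 at 10 µM (24). OCUG-1 vehicle library 2 was highest for 23. Libraries lowest for most of the genes were library 1 at 1.25 µM (26) and combination library 2 (24) in OCUG-1. In HuCCT1 they were library 1 at 1.25 µM (25) and vehicle library 2 (25).

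**Figure D1:**
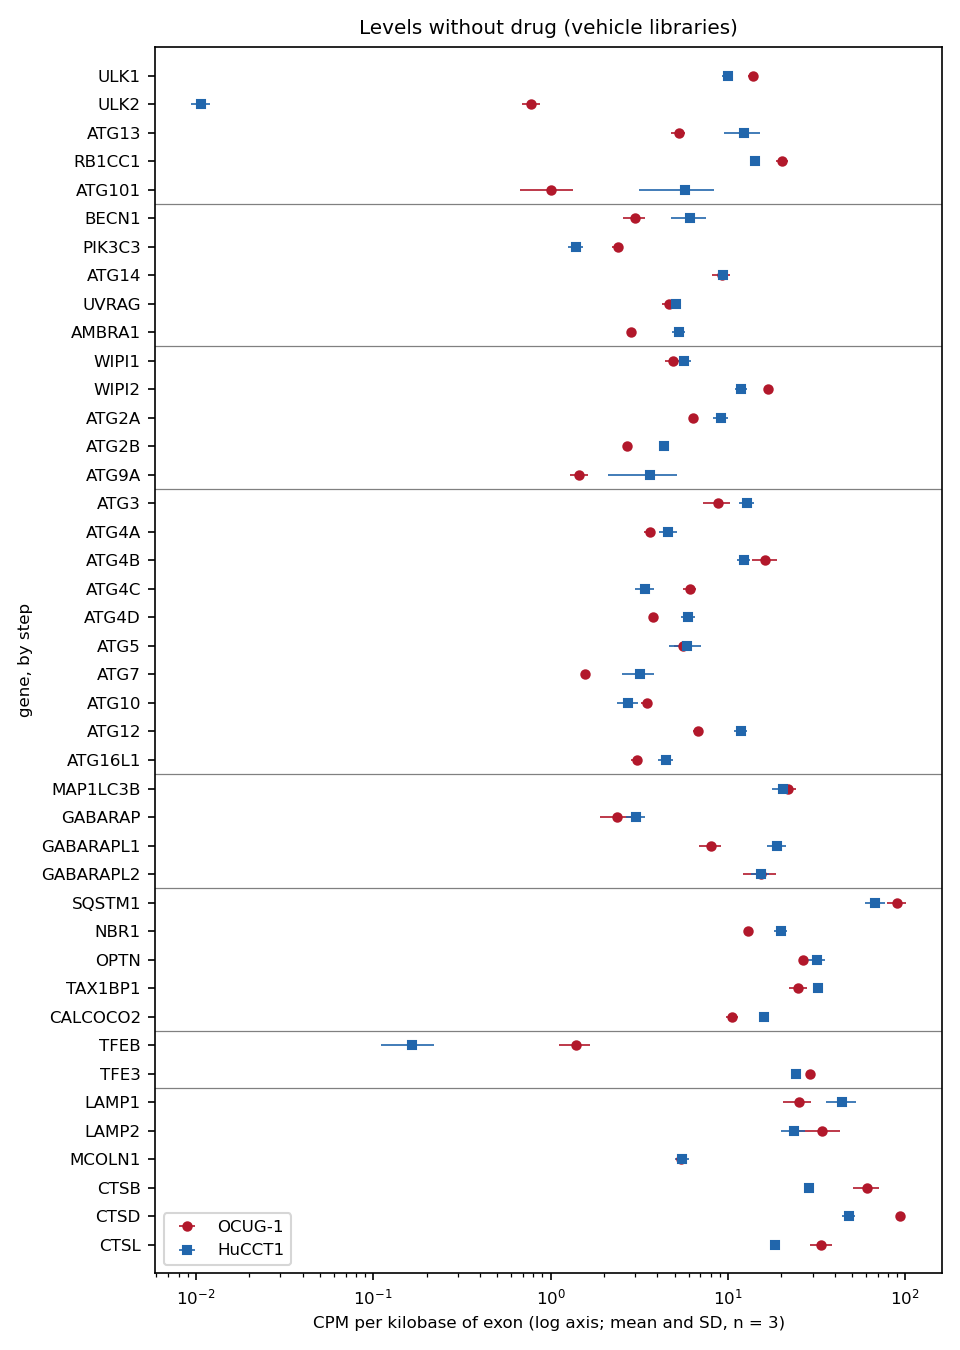
Level of each of the 42 genes without drug, in CPM per kilobase of exon on a log axis, as the mean and SD of 3 vehicle libraries in OCUG-1 (red circles) and HuCCT1 (blue squares), ordered by step. CTSD, SQSTM1 and CTSB stand highest in OCUG-1, and ULK2 and TFEB lie far lower in HuCCT1 than in OCUG-1.

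Without drug the machinery ran over a wide range of levels. Per kilobase of exon, OCUG-1 vehicle cells held most of the cathepsin D gene CTSD, at 93.3 ± 5.0 CPM per kilobase, and of the receptor gene SQSTM1, at 89.8 ± 11.4 (SD, n = 3), which overlap within their spread. A same-strand gene, AC068580.4, covers 41.7% of the exons of CTSD, so the level of CTSD is uncertain. HuCCT1 vehicle cells held most of SQSTM1, at 67.9 ± 8.5 CPM per kilobase, followed by CTSD at 47.9 ± 3.9 and LAMP1 at 44.2 ± 8.6. The lowest gene in both lines was ULK2, at 0.780 ± 0.092 in OCUG-1 and 0.0107 ± 0.0013 in HuCCT1, and TFEB was at 1.39 ± 0.28 in OCUG-1 and 0.165 ± 0.054 in HuCCT1. In a fit of all 24 libraries (edgeR's quasi-likelihood test, Benjamini-Hochberg adjusted p under 0.05, here termed called), 13 of the 42 genes were higher and 18 lower in OCUG-1 than in HuCCT1, or 73.8%, beside 68.3% of all 22944 genes tested (35.6% higher and 32.7% lower). By step, 4 of 5 receptors and 5 of 10 conjugation genes were lower in OCUG-1, and 4 of 6 lysosome genes were higher. The ULK2 kinase gene had 123 to 148 counts in each OCUG-1 vehicle library and 2 or 3 in each HuCCT1 vehicle library. Its fitted log2 fold change of 6.10 ± 0.33 (SE) rests on those few counts. ULK2 passed the filter through OCUG-1 alone, so its call, 1 of the 13 higher, is no test of the gap. Leaving ULK2 aside, TFEB showed the widest gap, at 3.06 ± 0.28 (adjusted p = 1.05e-10). ATG101, at 4.48, 2.64 and 2.56 CPM in OCUG-1 and 14.4, 12.8 and 27.9 CPM in HuCCT1, was lower by −2.51 ± 0.37 (adjusted p = 5.82e-06), and ATG13 by −1.22 ± 0.14 (adjusted p = 6.53e-09). Both form the regulatory part of the ULK complex, and in both genes all OCUG-1 libraries lay below all HuCCT1 libraries.

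**Figure D2:**
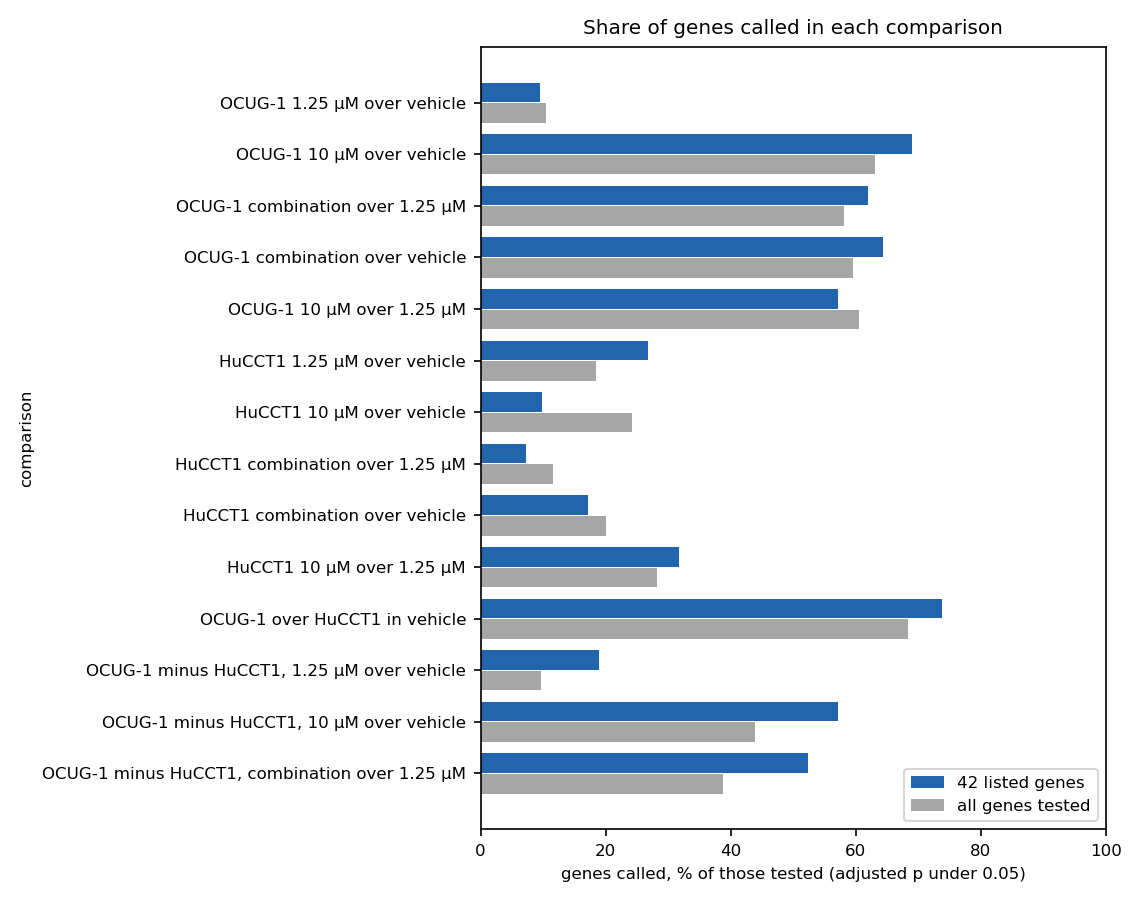
Share of the 42 listed genes (blue) and of all genes tested (grey) that were called at an adjusted p under 0.05 in each of 14 comparisons, in percent of the genes tested. In OCUG-1 at 10 µM the shares were 69.0% and 63.1%, and in HuCCT1 at 10 µM they were 9.76% and 24.2%.

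In OCUG-1, 10 µM sorafenib moved most of the listed genes. Against vehicle, 20 rose and 9 fell of 42, or 69.0%, beside 63.1% of all 20511 genes tested (32.4% higher and 30.7% lower), so the share called was near that of the transcriptome. The median log2 fold change was 0.29 over the listed genes and 0.00 over all genes. The combination against 1.25 µM sorafenib gave 17 higher and 9 lower (61.9%, beside 58.1% of all genes, 31.4% higher and 26.7% lower), with a median of 0.10 beside 0.06, and 14 higher and 12 lower without combination library 1. The combination against vehicle gave 18 and 9 (64.3%, beside 59.5%, 31.5% higher and 28.1% lower), and 10 µM against 1.25 µM gave 16 and 8 (57.1%, beside 60.5%, 31.6% higher and 29% lower). At 1.25 µM against vehicle only 4 genes were called (9.52%, beside 10.5%, 5.92% higher and 4.61% lower): CTSL and CTSD were higher and ULK1 and ATG14 lower. That last count moved to 9 without vehicle library 2, to 10 without 1.25 µM library 1, to 1 without vehicle library 3 or 1.25 µM library 3, and to 0 by edgeR without vehicle library 1 or 1.25 µM library 2, against 15 genes at an unadjusted p under 0.05 with all libraries and 9 called by DESeq2. Scaling by library size alone gave 1 higher and 4 lower at that dose, and 18 higher and 6 lower for the combination over 1.25 µM, where it shifted the median of all genes by 0.15.

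In HuCCT1 the count of called genes was lower than in OCUG-1 at 10 µM and in the combination and higher at 1.25 µM. Sorafenib at 1.25 µM against vehicle gave 1 higher and 10 lower of 41, or 26.8%, beside 18.5% of all 19576 genes tested (9.98% higher and 8.50% lower), with a median of −0.20 beside 0.00. At 10 µM 2 were higher and 2 lower (9.76%, beside 24.2%, 13.0% higher and 11.2% lower), and between the doses, 10 µM against 1.25 µM, 12 were higher and 1 lower (31.7%, beside 28.2%, 14.4% higher and 13.7% lower). The combination gave 3 higher against 1.25 µM (7.32%, beside 11.6%, 5.06% higher and 6.57% lower), and 3 higher and 4 lower against vehicle (17.1%, beside 20.1%, 9.94% higher and 10.1% lower). These counts moved with single libraries. At 1.25 µM the 11 called became 6 without vehicle library 1, 3 without vehicle library 3, 2 without 1.25 µM library 1 or 2, and 18 without 1.25 µM library 3. At 10 µM the 4 called became 9 without 10 µM library 3, 2 without vehicle library 1 or 10 µM library 2, and 1 without vehicle library 3 or 10 µM library 1. The 3 of the combination over 1.25 µM became 10 without 1.25 µM library 3 and 0 by edgeR without any 1 of the other 5 libraries, beside 10 genes at an unadjusted p under 0.05 with all of them and 5 called by DESeq2. The 7 of the combination over vehicle became 4 without any 1 of the vehicle libraries, 3 without combination library 2 and 2 without combination library 1 or 3, and the 13 between the doses became 8 without 1.25 µM library 1. With the libraries numbered 3 of vehicle, 1.25 µM and 10 µM left out together, chosen after seeing the data, 21 were called at 1.25 µM, 16 at 10 µM, 24 between the doses, 22 for the combination over 1.25 µM and 14 over vehicle. Scaling by library size alone, which moved the median of all genes by −0.15 at 1.25 µM, gave 16 lower and no higher there. The same scaling shifted that median by 0.18 between the doses and by 0.19 for the combination over 1.25 µM, and gave 19 and 13 higher and no lower. The members that kept their call in every alternative were RB1CC1 and WIPI1 at 1.25 µM, ATG4C at 10 µM, and 7 of 13 between the doses.

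**Figure D3:**
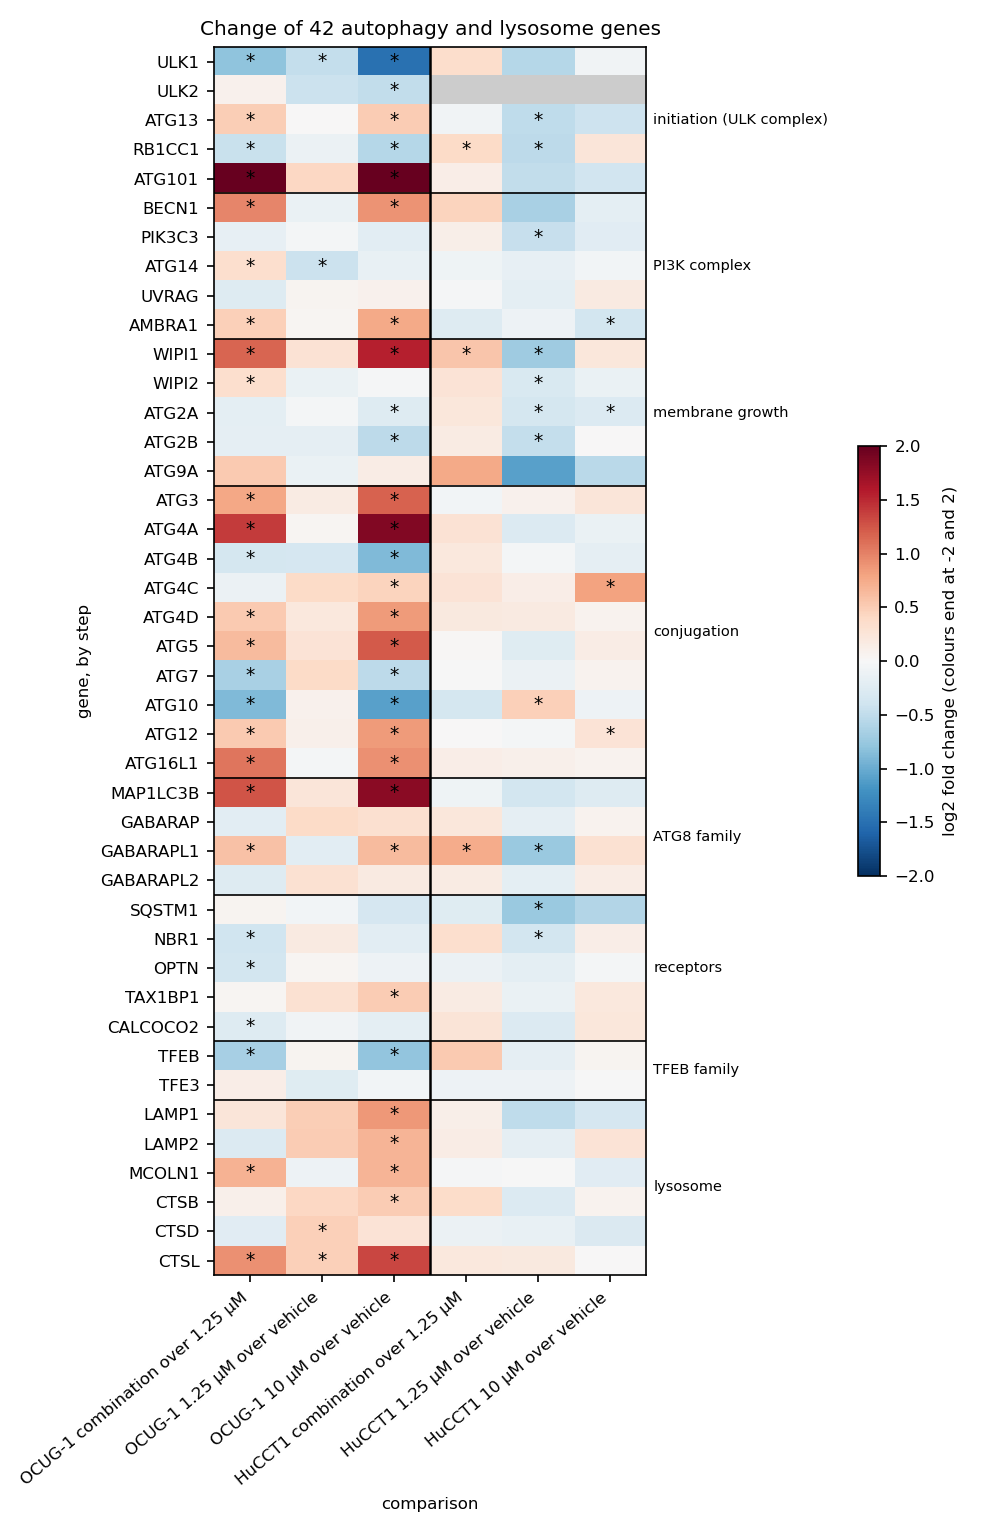
Log2 fold change of each of the 42 genes (rows, by step) in 6 comparisons (columns, OCUG-1 on the left and HuCCT1 on the right), with colours ending at −2 and 2, a star for a called gene and grey for ULK2, which was not tested in HuCCT1. The OCUG-1 columns for 10 µM and for the combination carry most of the stars, and ATG101 passes the colour scale in both.

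The ULK complex split in OCUG-1. ULK1, the kinase that starts autophagy, was at 44.0, 39.97 and 38.8 CPM in the combination, 113, 103 and 100.4 CPM in vehicle, 84.8, 75.5 and 71.6 CPM at 1.25 µM and 36.8, 28.4 and 41.5 CPM at 10 µM. The 10 µM and combination libraries were low, those at 1.25 µM lay between and those of vehicle were high, with no overlap between these levels. The change was −1.50 ± 0.12 at 10 µM (log2, SE, edgeR adjusted p = 8.82e-09), −0.80 ± 0.12 for the combination over 1.25 µM (adjusted p = 2.18e-05) and −0.48 ± 0.12 at 1.25 µM (adjusted p = 0.0189). The last call ended on leaving out vehicle library 1 or 3 or 1.25 µM library 2 or 3 (adjusted p up to 0.0921 over the alternatives). ATG101, which stabilises ATG13, went the other way, at 32.8, 15.0 and 19.0 CPM in the combination, 4.48, 2.64 and 2.56 CPM in vehicle, 3.00, 4.53 and 5.74 CPM at 1.25 µM and 21.7, 25.3 and 32.3 CPM at 10 µM. The combination and 10 µM libraries all lay above those of vehicle and 1.25 µM, and 3.10 ± 0.31 at 10 µM (adjusted p = 7.73e-07) was the largest rise among the listed genes. An antisense gene, AC025259.1, covers 19.2% of its exons and averaged at most 3.06 CPM in any group. ATG13 rose by 0.51 ± 0.11 at 10 µM (adjusted p = 0.000703). RB1CC1, the scaffold FIP200, fell by 0.57 ± 0.10 on the log2 scale (adjusted p = 5.68e-05). ULK2 was at 5.92, 5.15 and 4.35 CPM at 10 µM and 8.72, 7.07 and 7.24 CPM in vehicle, a change of −0.50 ± 0.19 (adjusted p = 0.0313) that lost its call without vehicle library 1 or 10 µM library 2 or 3 (adjusted p up to 0.119).

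In HuCCT1 2 of the 4 tested genes of this complex were lower at 1.25 µM, beside 8.5% of all genes tested. RB1CC1 was at 75.0, 76.7 and 71.4 CPM at 1.25 µM and 111, 103 and 108 CPM in vehicle, −0.53 ± 0.11 (adjusted p = 0.00356), with every 1.25 µM library below every vehicle library. At 10 µM it stood at 122, 109 and 149.8 CPM, 0.77 ± 0.11 above 1.25 µM (adjusted p = 0.000138), and in the combination at 95.3, 98.8 and 97.4 CPM, 0.39 ± 0.11 above 1.25 µM (adjusted p = 0.0293). The combination call ended whichever of its 6 libraries was left out (adjusted p up to 0.0993). ATG13 was lower by −0.51 ± 0.15 at 1.25 µM (adjusted p = 0.0283) and by −0.59 ± 0.15 in the combination over vehicle (adjusted p = 0.0117). Both calls ended without vehicle library 3, which at 108 CPM was the highest of its arm (79.3 and 71.3 CPM in the other vehicle libraries), and the first also without 1.25 µM library 1 or 2, the second without combination library 1 or 3. ULK1 and ATG101 were not called in HuCCT1: ULK1 was at −0.58 for 1.25 µM over vehicle, with a 95% interval of −0.97 to −0.18 and an adjusted p over the threshold, and ATG101 at −0.38 for 10 µM over vehicle (−0.93 to 0.18).

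Of the PI3-kinase complex, 2 of 5 genes rose in OCUG-1 at 10 µM and 3 in the combination over 1.25 µM. Over all genes tested, 32.4% and 31.4% were higher in these 2 comparisons. BECN1, beclin 1, was at 38.1, 27.6 and 32.4 CPM in the combination, 16.5, 19.3 and 21.9 CPM in vehicle, 11.3, 20.003 and 22.7 CPM at 1.25 µM and 34.1, 31.5 and 36.4 CPM at 10 µM. AMBRA1, a scaffold that links beclin 1 to the ULK complex, was at 33.4, 35.2 and 36.2 CPM at 10 µM and 22.3, 22.1 and 20.9 CPM in vehicle. In both genes the 10 µM libraries all exceeded the vehicle libraries, by 0.89 ± 0.19 for BECN1 (adjusted p = 0.000535) and 0.75 ± 0.11 for AMBRA1 (adjusted p = 8.1e-06). The combination raised them over 1.25 µM by 0.98 ± 0.19 (adjusted p = 0.000311) and 0.47 ± 0.11 (adjusted p = 0.0012). PIK3C3, the lipid kinase VPS34 itself, and UVRAG, an alternative partner of beclin 1, were not called in any OCUG-1 comparison. ATG14, which directs the complex to the forming autophagosome, was at 39.5, 36.2 and 30.3 CPM at 1.25 µM and 52.5, 42.1 and 45.3 CPM in vehicle, −0.43 ± 0.11 (adjusted p = 0.0239). That call ended without vehicle library 1 or 3 or 1.25 µM library 2 or 3 (adjusted p up to 0.124).

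HuCCT1 showed AMBRA1 in the opposite direction. It was at 28.9, 30.2 and 35.3 CPM at 10 µM, 29.7, 31.8 and 33.1 CPM in the combination and 40.1, 37.5 and 43.9 CPM in vehicle, so both drug arms lay wholly below vehicle. The change was −0.37 ± 0.11 at 10 µM (adjusted p = 0.0201) and −0.36 ± 0.11 in the combination (adjusted p = 0.026). Both calls ended without vehicle library 1 or 3, the first also without 10 µM library 1 or 2 and the second without any 1 combination library (adjusted p up to 0.0998 and 0.129). PIK3C3 was lower at 1.25 µM by −0.46 ± 0.13 (adjusted p = 0.0213), a call that ended without vehicle library 3 or 1.25 µM library 1 or 2 (adjusted p up to 0.109). UVRAG was higher at 10 µM than at 1.25 µM by 0.37 ± 0.12 (adjusted p = 0.0361), and not without 10 µM library 3 or any 1 of the 1.25 µM libraries (adjusted p up to 0.192).

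**Figure D4:**
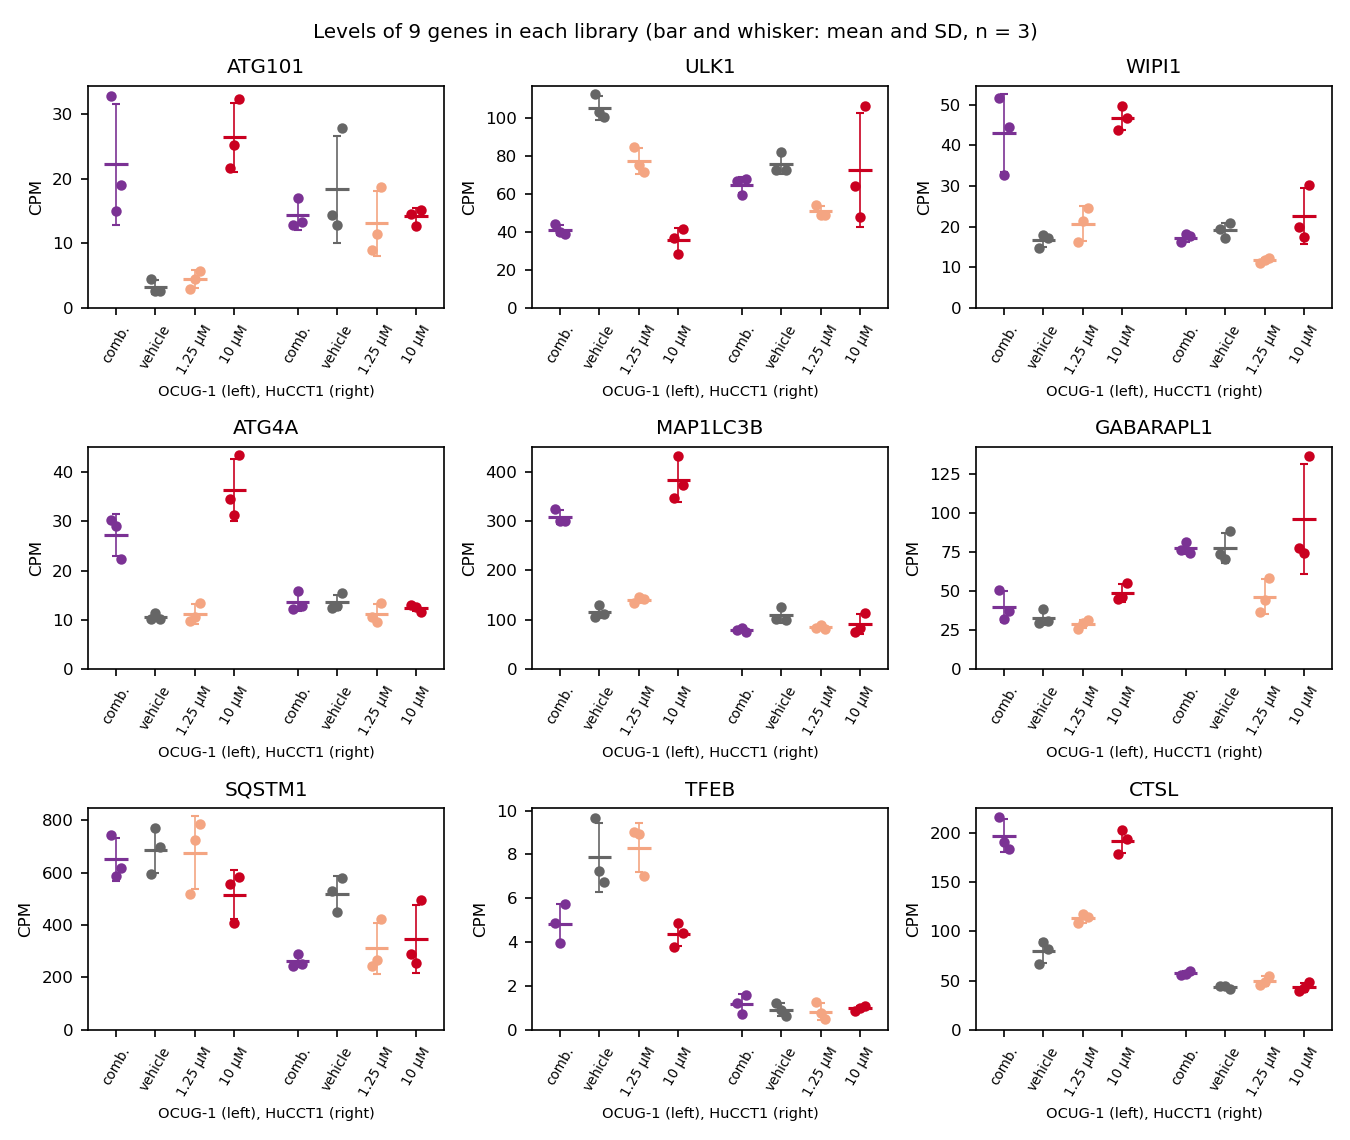
CPM of 9 of the genes in each library (points), with the mean (bar) and SD (whisker) of 3 libraries, for the combination, vehicle, 1.25 µM and 10 µM sorafenib in OCUG-1 (left in each panel) and HuCCT1 (right). MAP1LC3B stands at 301 to 432 CPM in the OCUG-1 combination and 10 µM libraries and at 104 to 145 CPM in the other OCUG-1 libraries.

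Among the genes of membrane growth, WIPI1 stood out. It encodes a protein that binds the lipid made by VPS34. In OCUG-1 it was at 51.6, 32.7 and 44.5 CPM in the combination, 14.8, 17.8 and 17.3 CPM in vehicle, 16.1, 21.3 and 24.7 CPM at 1.25 µM and 43.7, 49.6 and 46.8 CPM at 10 µM. The 10 µM and combination libraries all exceeded the others, by 1.56 ± 0.16 at 10 µM (adjusted p = 1.2e-07) and 1.17 ± 0.16 for the combination over 1.25 µM (adjusted p = 4.78e-06). The hydrolase gene ARSG overlaps 24.3% of its exons on the other strand. In HuCCT1 WIPI1 was at 16.1, 18.1 and 17.6 CPM in the combination, 19.5, 17.2 and 20.8 CPM in vehicle, 11.0, 11.9 and 12.3 CPM at 1.25 µM and 19.8, 17.4 and 30.3 CPM at 10 µM. Only the 1.25 µM libraries lay apart from vehicle, by −0.71 ± 0.17 (adjusted p = 0.0104). The combination over 1.25 µM was higher by 0.56 ± 0.17 (adjusted p = 0.0445), a call that held without 1.25 µM library 3 and ended without any 1 of the other 5 libraries (adjusted p up to 0.137).

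The lipid transfer genes ATG2A and ATG2B were lower than in vehicle in both lines where called. In OCUG-1 at 10 µM ATG2B fell to 27.0, 28.2 and 24.7 CPM, against 41.0, 40.1 and 39.2 CPM in vehicle, −0.52 ± 0.11 (adjusted p = 0.000351). ATG2A changed by −0.25 ± 0.10 (adjusted p = 0.0267) and lost its call without vehicle library 2 or 10 µM library 1 or 2 (adjusted p up to 0.156). In HuCCT1 at 1.25 µM ATG2B changed by −0.47 ± 0.13 (adjusted p = 0.0166), ATG2A by −0.36 ± 0.10 (adjusted p = 0.0173) and WIPI2, the partner of ATG16L1, by −0.30 ± 0.10 (adjusted p = 0.0483). All 3 calls ended without 1.25 µM library 1 or 2, and those of ATG2A and WIPI2 also without vehicle library 1 or 3. At 10 µM ATG2A changed by −0.28 ± 0.10 (adjusted p = 0.042), a call lost without vehicle library 1 or 3 or 10 µM library 1 or 2 (adjusted p up to 0.14). Between the doses ATG2B was higher in HuCCT1, at 64.9, 50.4 and 79.4 CPM at 10 µM and 44.5, 48.1 and 46.9 CPM at 1.25 µM, 0.48 ± 0.13 (adjusted p = 0.0105), a call kept in every alternative. ATG9A, the membrane protein of the vesicles that seed autophagosomes, was not called within either line, with a 95% interval of −0.50 to 0.81 in OCUG-1 at 10 µM. A same-strand gene, AC068946.2, covers 38.8% of its exons, so its level is uncertain.

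All 10 conjugation genes were called in OCUG-1 at 10 µM (7 higher, 3 lower), beside 63.1% of all genes (32.4% higher, 30.7% lower). Among the conjugation genes that rose were ATG3, the enzyme that passes LC3 to its lipid, and ATG5, ATG12 and ATG16L1, which together form the ligase. ATG4A, a protease that primes ATG8 proteins and frees them from the membrane, was at 30.2, 29.1 and 22.3 CPM in the combination, 10.25, 11.4 and 10.1 CPM in vehicle, 9.65, 10.5 and 13.4 CPM at 1.25 µM and 34.5, 31.2 and 43.4 CPM at 10 µM. The 10 µM and combination libraries lay wholly above the others. The change was 1.84 ± 0.16 at 10 µM (adjusted p = 1.27e-08) and 1.40 ± 0.16 for the combination over 1.25 µM (adjusted p = 5.66e-07). ATG5 was at 60.7, 66.9 and 81.8 CPM at 10 µM and 30.4, 35 and 28.8 CPM in vehicle, 1.22 ± 0.14 (adjusted p = 4.02e-07), and ATG3 was at 106, 126 and 115 CPM and 44.0, 62.9 and 53.3 CPM in those groups, 1.19 ± 0.13 (adjusted p = 2.58e-07). ATG16L1 rose by 0.91 ± 0.10, ATG12 by 0.86 ± 0.09, ATG4D by 0.85 ± 0.13 and ATG4C by 0.44 ± 0.15, each at an adjusted p of at most 0.0136. ATG4C overlapped vehicle in 1 library and lost its call without vehicle library 3 or 10 µM library 2 (adjusted p up to 0.0893). As the strand setting is not known, reads of KRI1, which covers 15.0% of the exons of ATG4D on the other strand at 449% of its level, can count towards ATG4D.

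The falls were in another protease and in the enzymes that load ATG12. ATG10, which carries ATG12, was at 8.79, 11.9 and 10.15 CPM in the combination, 20.1, 19.4 and 17.6 CPM in vehicle, 20.6, 22.2 and 19.1 CPM at 1.25 µM and 10.0, 7.07 and 8.38 CPM at 10 µM. It changed by −1.09 ± 0.15 at 10 µM (adjusted p = 5.92e-06) and −0.89 ± 0.15 for the combination over 1.25 µM (adjusted p = 6.56e-05), with no overlap in either. ATG4B, which acts like ATG4A, fell to 53.1, 61.7 and 51.7 CPM at 10 µM, against 127, 92.3 and 105 CPM in vehicle, −0.89 ± 0.13 (adjusted p = 7.37e-06). ATG7, which activates both ATG12 and the ATG8 proteins, was at 12.3, 10.8 and 9.81 CPM in the combination, 13.9, 14.3 and 13.5 CPM in vehicle, 19.2, 17.1 and 19.4 CPM at 1.25 µM and 10.6, 8.01 and 9.10 CPM at 10 µM. It changed by −0.52 ± 0.14 at 10 µM (adjusted p = 0.0034), and VGLL4 overlaps 18.1% of its exons on the other strand. The paralogues ATG4A and ATG4B thus moved in opposite directions in the same libraries.

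In HuCCT1 2 of the 10 conjugation genes were called at 10 µM, both higher, beside 24.2% of all genes tested (13% higher). ATG4C was at 20.9, 18.3 and 16.5 CPM at 10 µM and 9.31, 10.6 and 11.98 CPM in vehicle, 0.81 ± 0.13 (adjusted p = 0.000394), the one change at that dose whose call held in every alternative. ATG12 was higher by 0.27 ± 0.09 at 10 µM (adjusted p = 0.0342) and lost the call without vehicle library 2 or 3 or 10 µM library 1 or 2 (adjusted p up to 0.204). ATG10 was at 23.9, 23.3 and 15.0 CPM at 1.25 µM and 13.97, 17.2 and 13.7 CPM in vehicle, 0.48 ± 0.16 (adjusted p = 0.0495), with overlap and a call lost without vehicle library 1 or 3 or 1.25 µM library 1 or 2 (adjusted p up to 0.207). In the combination over vehicle ATG4C was higher by 0.40 ± 0.13 (adjusted p = 0.0453) and ATG4D by 0.37 ± 0.12 (adjusted p = 0.0401), and both calls ended without vehicle library 1 or 2 or combination library 1 or 2. Without drug, ATG7 and ATG12 were lower in OCUG-1 than in HuCCT1, by −1.01 ± 0.15 and −0.81 ± 0.09.

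Of the ATG8 family, MAP1LC3B led. This gene encodes LC3B, whose lipid-bound form is the usual marker of autophagosomes. OCUG-1 cells held 325, 301 and 301 CPM in the combination, 104, 129.5 and 112 CPM in vehicle, 134, 145 and 141 CPM at 1.25 µM and 346, 432 and 373 CPM at 10 µM. The change was 1.80 ± 0.11 at 10 µM (adjusted p = 1.47e-10) and 1.26 ± 0.11 for the combination over 1.25 µM (adjusted p = 1.7e-08). Per kilobase it stood at 72.2 ± 8.3 at 10 µM and 21.7 ± 2.4 CPM per kilobase in vehicle. The near-identical copy MAP1LC3B2 averaged at most 0.875 CPM in any group. In HuCCT1 MAP1LC3B was at 79.4, 83.3 and 75.6 CPM in the combination and 102, 126 and 98.6 CPM in vehicle, −0.45 ± 0.14 (adjusted p = 0.0285), a call lost without vehicle library 2 or any 1 combination library (adjusted p up to 0.125).

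GABARAPL1, of the other ATG8 branch, was at 44.5, 45.9 and 55.4 CPM at 10 µM and 29.4, 38.2 and 30.7 CPM in vehicle in OCUG-1, 0.64 ± 0.15 (adjusted p = 0.00113). In HuCCT1 it was at 76.0, 81.6 and 74.4 CPM in the combination, 73.4, 70.4 and 88.8 CPM in vehicle, 36.4, 44.4 and 58.4 CPM at 1.25 µM and 77.6, 74.4 and 137 CPM at 10 µM. The 1.25 µM libraries all lay below the other 3 arms. The change was −0.74 ± 0.21 over vehicle (adjusted p = 0.0283), a call lost without vehicle library 1 or 3 or 1.25 µM library 1 or 2 (adjusted p up to 0.121), and 1.05 ± 0.21 for 10 µM over 1.25 µM (adjusted p = 0.00274), a call kept in every alternative. GABARAP was not called in any of the 14 comparisons, at 4.36 to 8.17 CPM over all libraries. A same-strand gene covers 30.5% of its exons, so its low level is uncertain. GABARAPL2 was called within a line only between the doses in HuCCT1, 0.34 ± 0.12 (adjusted p = 0.041), and not without 1.25 µM or 10 µM library 1 or 2.

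Of the 5 receptors, 1 rose in OCUG-1 at 10 µM and 3 fell in the combination over 1.25 µM. Over all genes tested, 32.4% were higher in the first comparison and 26.7% lower in the second. SQSTM1 encodes p62, which carries ubiquitinated cargo. It was at 744, 588 and 619 CPM in the combination, 596, 770.2 and 696 CPM in vehicle, 518, 723 and 786 CPM at 1.25 µM and 558, 409 and 581 CPM at 10 µM. Its 10 µM libraries lay below those of vehicle and the other arms overlapped, and no OCUG-1 comparison was called: −0.34 at 10 µM (95% interval −0.65 to −0.03) and 0.01 for the combination over vehicle (−0.30 to 0.31). In HuCCT1 it was at 245, 289 and 253 CPM in the combination, 529, 450.2 and 579.7 CPM in vehicle, 243, 267 and 423 CPM at 1.25 µM and 289, 256 and 497 CPM at 10 µM. Every combination and 1.25 µM library lay below every vehicle library, whereas 10 µM library 3 lay above vehicle library 2 and that dose was not called. It changed by −0.98 ± 0.24 in the combination (adjusted p = 0.0113), a call lost without vehicle library 3 (adjusted p up to 0.106), and by −0.74 ± 0.24 at 1.25 µM (adjusted p = 0.0474), a call lost without any 1 library other than 1.25 µM library 3 (adjusted p up to 0.221). MRNIP covers 20.7% of the exons of SQSTM1 on the other strand. It averaged 117 CPM in the combination, 124 CPM at 1.25 µM and 157 CPM in vehicle in HuCCT1, and its part in the SQSTM1 counts was not tested.

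TAX1BP1, another ubiquitin receptor, rose at 10 µM in OCUG-1 to 288, 314 and 331 CPM, against 203, 258 and 226 CPM in vehicle, 0.51 ± 0.11 (adjusted p = 0.000579). NBR1, OPTN and CALCOCO2 were lower in the OCUG-1 combination than at 1.25 µM, by −0.39 ± 0.10, −0.37 ± 0.11 and −0.26 ± 0.10 (adjusted p = 0.00199, 0.00604 and 0.0259). Scaling by library size alone, which moved the median of all genes by 0.15 in that comparison, ended the calls of OPTN and CALCOCO2, and leaving out 1.25 µM library 2 or combination library 2 ended that of CALCOCO2 too. In HuCCT1 3 of the 5 receptors were higher at 10 µM than at 1.25 µM, beside 14.4% of all genes tested. These receptors were NBR1, higher by 0.50 ± 0.11, CALCOCO2 by 0.50 ± 0.11 and TAX1BP1 by 0.35 ± 0.09 (adjusted p = 0.00367, 0.0035 and 0.0109). The first pair held in every alternative, and TAX1BP1 was lost without 1.25 µM library 1 (adjusted p up to 0.0515). At 1.25 µM NBR1 was lower than in vehicle by −0.37 ± 0.11 (adjusted p = 0.0308), and not without vehicle library 3 or 1.25 µM library 1 or 2 (adjusted p up to 0.114).

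Of the 2 transcription factors, TFEB alone was called within a line. It fell in OCUG-1, at 4.86, 3.97 and 5.72 CPM in the combination, 9.66, 7.24 and 6.73 CPM in vehicle, 9.01, 8.93 and 7.01 CPM at 1.25 µM and 3.80, 4.86 and 4.397 CPM at 10 µM. Both low groups lay below both high groups, by −0.79 ± 0.19 at 10 µM over vehicle (adjusted p = 0.00163) and −0.67 ± 0.19 for the combination over 1.25 µM (adjusted p = 0.00609). In HuCCT1 TFEB was at 8 to 39 counts a library and was not called. TFE3, a close relative, was at 111, 110.1 and 117 CPM at 10 µM and 129, 118 and 124 CPM in vehicle in OCUG-1, and was not called within either line, with a 95% interval of −0.23 to 0.11 at 10 µM in OCUG-1 and −0.19 to 0.19 in HuCCT1. TFEB is controlled largely by where its protein sits in the cell, which transcript counts do not show.

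Of the 6 lysosome genes, 5 rose in OCUG-1 at 10 µM, beside 32.4% of all genes tested. Among the further lysosomal hydrolases described below, more fell than rose in the same comparison. CTSL, the protease cathepsin L, was at 216, 191 and 184 CPM in the combination, 67.1, 89.2 and 82.6 CPM in vehicle, 108, 117 and 115 CPM at 1.25 µM and 178, 202 and 194 CPM at 10 µM. All 3 drug arms lay above vehicle, and CTSL and ULK1 were the 2 genes called in all 5 OCUG-1 comparisons. The change was 1.34 ± 0.11 at 10 µM (adjusted p = 8.13e-09), 0.91 ± 0.11 for the combination over 1.25 µM (adjusted p = 1.17e-06) and 0.48 ± 0.11 at 1.25 µM (adjusted p = 0.0107), the last lost without vehicle library 1 or 1.25 µM library 2 (adjusted p up to 0.0581). LAMP1, a main glycoprotein of the lysosomal membrane, was at 229, 215 and 308 CPM at 10 µM and 120.4, 172 and 139.7 CPM in vehicle, 0.87 ± 0.19 (adjusted p = 0.0011). MCOLN1, the calcium channel of the lysosome, was at 32.3, 30.2 and 36.8 CPM at 10 µM and 22.0, 22.9 and 20.1 CPM in vehicle, 0.68 ± 0.13 (adjusted p = 0.000116). LAMP2 rose by 0.67 ± 0.20 (adjusted p = 0.00838) and CTSB by 0.51 ± 0.14 (adjusted p = 0.00336). At 10 µM LAMP2 was at 269, 250 and 340 CPM and CTSB at 589, 549 and 701 CPM. The 1.25 µM libraries overlapped these, with LAMP2 at 207, 290 and 322 CPM and CTSB at 507, 656 and 683 CPM. LAMP1 overlapped between the doses too, at 157, 216 and 247 CPM at 1.25 µM. None of LAMP1, LAMP2 and CTSB was called at 1.25 µM over vehicle. The combination over 1.25 µM raised only CTSL and MCOLN1 of these 6 past the threshold, MCOLN1 by 0.70 ± 0.13 (adjusted p = 0.000117). CTSD was at 346, 446 and 449.6 CPM at 1.25 µM and 276, 308 and 291 CPM in vehicle, 0.47 ± 0.14 (adjusted p = 0.0343), a call lost without vehicle library 1 or 3 or 1.25 µM library 2 or 3 (adjusted p up to 0.136) or with library size alone. In HuCCT1 CTSL was the 1 lysosome gene called, at 55.2, 56.7 and 60.001 CPM in the combination and 44.1, 44.9 and 41.3 CPM in vehicle, 0.40 ± 0.10 (adjusted p = 0.012), and not without combination library 3 (adjusted p = 0.0611).

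TFEB and TFE3 are known to bind E-boxes, CACGTG, and in particular the form TCACGTGA, in promoters of lysosome genes. Windows from 250 bases before to 50 bases after the start of transcription were available for 37 of the 42 genes (RefSeq, GRCh38.p14). On either strand, CACGTG, which also counts each TCACGTGA, lay in 5 of 37 (13.5%), beside 7.43% of 27305 promoters, and TCACGTGA in 3 of 37 (8.11%), beside 1.04%. The 5 were ATG3, ATG14, CTSD, LAMP1 and MCOLN1, of which ATG3, LAMP1 and MCOLN1 held the longer form. These 3 rose in OCUG-1 at 10 µM, whereas ATG14 and CTSD were not called there. For the combination over 1.25 µM LAMP1 and CTSD were not called. Genes with neither motif rose at 10 µM too, such as MAP1LC3B and CTSL, or fell, such as ULK1. The 250 bases before the starts of the 3 genes with TCACGTGA are shown because the motif falls in their windows. They run 5′ to 3′ on the gene's strand, with each CACGTG or TCACGTGA in capitals. The positions are chr3:112561963-112562212 (minus) for ATG3, chr13:113296989-113297238 (plus) for LAMP1 and chr19:7522374-7522623 (plus) for MCOLN1. The TCACGTGA of ATG3 lies just past its start and is not part of the stretch shown, and LAMP1 has 1 more TCACGTGA that crosses the end of its stretch.
ATG3: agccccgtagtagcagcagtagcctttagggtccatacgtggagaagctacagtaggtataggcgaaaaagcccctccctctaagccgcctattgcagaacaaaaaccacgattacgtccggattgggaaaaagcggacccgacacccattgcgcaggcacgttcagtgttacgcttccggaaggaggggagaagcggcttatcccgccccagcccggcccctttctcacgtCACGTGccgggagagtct
LAMP1: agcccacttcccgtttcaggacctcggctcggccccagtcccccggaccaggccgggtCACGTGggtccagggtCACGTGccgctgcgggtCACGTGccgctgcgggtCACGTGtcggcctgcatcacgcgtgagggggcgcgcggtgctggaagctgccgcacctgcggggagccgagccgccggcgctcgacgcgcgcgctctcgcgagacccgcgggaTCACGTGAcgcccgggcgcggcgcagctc
MCOLN1: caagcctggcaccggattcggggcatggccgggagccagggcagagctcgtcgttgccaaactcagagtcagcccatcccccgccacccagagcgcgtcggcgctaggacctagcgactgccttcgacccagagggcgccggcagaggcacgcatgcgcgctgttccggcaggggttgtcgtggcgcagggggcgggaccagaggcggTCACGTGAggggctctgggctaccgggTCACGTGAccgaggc
The ATG3 stretch holds 1 motif, that of LAMP1 holds 5 and that of MCOLN1 holds 2. A match is a description of letters and shows neither binding nor a cause of the change.

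**Figure D5:**
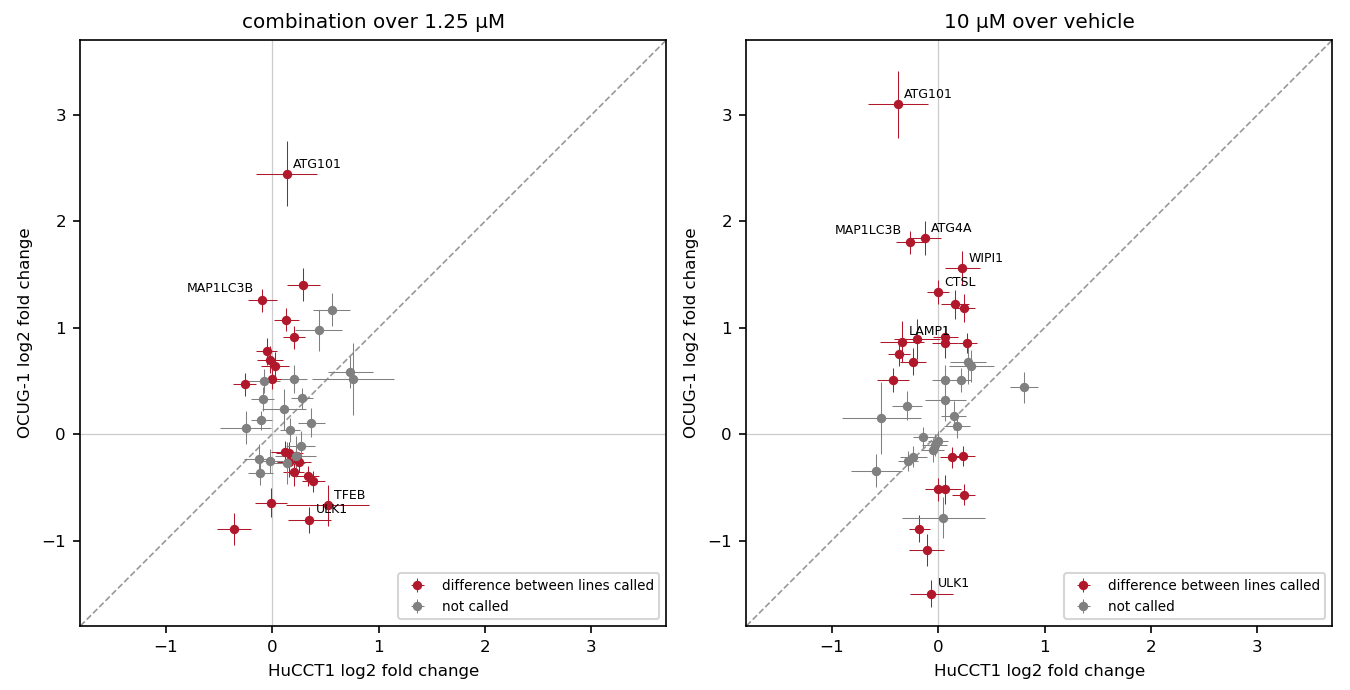
Log2 fold change in OCUG-1 (vertical) against HuCCT1 (horizontal) for each of the 41 genes tested in both, with SE as whiskers, for the combination over 1.25 µM (left) and 10 µM over vehicle (right). Red points were called for the difference between lines and the dashed line marks equal change. ATG101 stands at 3.10 in OCUG-1 and −0.38 in HuCCT1 at 10 µM, and ULK1 at −1.50 and −0.06.

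The lines differed in these changes themselves. Tested as an interaction in the fit of 24 libraries, the change at 10 µM was more positive in OCUG-1 for 15 genes and more negative for 9, or 57.1% of 42, beside 43.8% of all 22944 genes (20.7% and 23.1%). The 9 include ULK2 at −1.62 ± 0.57 (adjusted p = 0.0265), which had 1 to 7 counts in each HuCCT1 library and passed the filter through OCUG-1 alone, so its value measures no HuCCT1 response. For the combination over 1.25 µM the counts were 10 and 12 (52.4%, beside 38.8%, 18.6% and 20.2%), and at 1.25 µM they were 8 and 0 (19.0%, beside 9.65%, 4.96% and 4.69%). Leaving ULK2 aside, the largest differences at 10 µM were 3.41 ± 0.49 for ATG101 (adjusted p = 1.12e-05), 1.99 ± 0.18 for MAP1LC3B (adjusted p = 3.13e-10) and 1.90 ± 0.22 for ATG4A (adjusted p = 5.85e-08) upwards, with −1.51 ± 0.25 for ULK1 (adjusted p = 2.2e-05) downwards. The 8 at 1.25 µM became 16 without HuCCT1 1.25 µM library 3, 4 without HuCCT1 vehicle library 1 or 3 or OCUG-1 1.25 µM library 2 or 3, 3 without HuCCT1 1.25 µM library 1 or 2 or OCUG-1 vehicle library 3, and 2 without OCUG-1 vehicle library 1.

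The OCUG-1 comparisons of 10 µM with vehicle and of the combination with 1.25 µM share no library. Of the 29 and 26 listed genes called in them, 21 were called in both, all in the same direction, with 15 higher and 6 lower. That is 72.4% of the first list and 80.8% of the second, beside 70.0% and 76.0% over all genes tested, so the overlap was near that of the transcriptome. In HuCCT1 the same pair of comparisons had 4 and 3 listed genes called and no gene in both, beside 19.9% and 41.6% of all genes called alike. Between the lines at 10 µM, 4 genes were called in both: ATG4C and ATG12 were higher in both, ATG2A was lower in both, and AMBRA1 was higher in OCUG-1 and lower in HuCCT1. Over all genes 1541 had the same direction and 1527 the opposite one.

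Around the 42 genes, 155 more of the same pathways were counted, and 154 could be tested in OCUG-1. Calls of these further genes were not followed through the alternative fits or with single libraries left out. In OCUG-1 at 10 µM 61 rose and 44 fell (68.2%, beside 63.1% of all genes). Of 16 subunits of the vacuolar ATPase, the proton pump that acidifies lysosomes, 11 rose and 1 fell at 10 µM, with a median of 0.65 (75.0%, beside 63.1%), and 13 rose and none fell in the combination against vehicle (81.2%, beside 59.5%). ATP6V1B2, a subunit of its catalytic part, was at 165 ± 16.9 CPM at 10 µM and 31.1 ± 1.7 CPM in vehicle (SD, n = 3), 2.48 ± 0.12 (adjusted p = 1.96e-11). Of 41 lysosomal hydrolases, 9 were higher and 17 lower at 10 µM (63.4%, beside 63.1%, 32.4% higher and 30.7% lower). In the combination against 1.25 µM 4 were higher and 22 lower (63.4%, beside 58.1%, 31.4% higher and 26.7% lower). The shares called were near those of all genes, but the hydrolase calls lay mostly on the lower side. NAGLU, an enzyme of heparan sulfate breakdown, fell to 38.3 ± 4.6 CPM at 10 µM, against 77.0 ± 6.1 CPM in vehicle, −0.94 ± 0.10 (adjusted p = 3.8e-07). FUCA1, a fucosidase, changed by −1.40 ± 0.14 in the combination over 1.25 µM (adjusted p = 1.47e-07).

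Among genes of mTORC1, AMPK and TFEB control, 16 rose and 7 fell of 36 in OCUG-1 at 10 µM (63.9%, beside 63.1% of all genes, 32.4% higher and 30.7% lower). SESN2, a stress-induced inhibitor of mTORC1, was at 75.1 ± 2.9 CPM at 10 µM and 15.3 ± 3.1 CPM in vehicle, 2.36 ± 0.12 (adjusted p = 3.58e-11). For another comparison, the combination over vehicle in HuCCT1, SESN2 was at 24.2 ± 2.0 and 59.6 ± 19.0 CPM, −1.30 ± 0.27 (adjusted p = 0.00503). At 10 µM over vehicle in both lines, its change was more positive in OCUG-1 by 2.44 ± 0.32 (edgeR adjusted p = 1.57e-06). Other core genes gave 8 higher and 8 lower of 22 in OCUG-1 at 10 µM (72.7%): NRBF2, a subunit of the PI3-kinase complex, rose by 2.15 ± 0.15 (adjusted p = 1.05e-09), and TP53INP1, which binds LC3, fell by 2.02 ± 0.15 on the log2 scale (adjusted p = 1.45e-09). TPCN1, a cation channel of the endolysosome, fell to 62.9 ± 12.6 CPM, against 267 ± 37.5 CPM in vehicle, −2.01 ± 0.16 (adjusted p = 1.46e-08), among 9 higher and 4 lower of 21 genes of the lysosomal membrane and sorting (61.9%). Mitophagy and organelle receptors gave 8 higher and 7 lower of 18 (83.3%). In HuCCT1 151 of the 155 were tested, with 18 higher and 25 lower at 10 µM (28.5%, beside 24.2%) and 13 and 17 at 1.25 µM (19.9%, beside 18.5%). LAMP3, a lysosomal membrane glycoprotein, changed there by −1.79 ± 0.12 in the combination over 1.25 µM (adjusted p = 3e-07), and GLA, the alpha-galactosidase gene, by 1.01 ± 0.12 at 1.25 µM (adjusted p = 9.9e-05).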

How the data were processed

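Per the labels, polyadenylated RNA of 24 cell line cultures was sequenced in paired reads, and each of 8 groups holds 3 biological replicates. Some OCUG-1 libraries had additional sequencing runs, and the labels do not say which ones. The authors deposited raw counts per gene in 1 table per line. Per the submitters' processing notes, bcl2fastq, fastp 1.3.2, HISAT2 2.2.2, featureCounts of Subread 2.1.1, MultiQC 1.33, R 4.4.1, DESeq2 1.42.1 and the build GRCh38 were used. Not given in the sources used here: the annotation release, strand setting and handling of reads with several matches. Antisense and overlapping genes can therefore share reads.

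Groups came from the labels. Tests ran on the deposited counts in edgeR 4.0.16 under R 4.3.3 (filterByExpr with a minimum count of 10, TMM scaling, robust quasi-likelihood F test, two-sided), in 1 fit of 12 libraries per line and 1 of all 24 for differences between lines. The p-values were adjusted by Benjamini-Hochberg over all genes in the fit, with a threshold of 0.05. The test was checked on simulated data in which few genes changed and libraries were independent. That check does not cover data with most genes changed or with libraries that deviate together. CPM were computed here with the TMM scaling of 24 libraries, and per kilobase with exon lengths of GENCODE annotation. A 95% interval of a fold change uses the fit's SE. Promoters are RefSeq windows. Alternatives were other scalings, no filter, DESeq2 1.42.0, the compared groups alone, a replicate block and each library left out.

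The listed genes and the other lists were chosen with earlier results of these data known. The genes named outside the 42 are at most 2 per list and comparison, by lowest adjusted p among those called.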

Additional observations from a re-analysis of the deposited data

Results flagged for a closer look

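Each listed gene whose drug response differed between OCUG-1 and HuCCT1 is given here with the difference of its log2 fold changes, OCUG-1 minus HuCCT1, from edgeR's quasi-likelihood test of that difference in the fit of all 24 libraries at a Benjamini-Hochberg adjusted p under 0.05. Line and medium differ together and cannot be told apart.

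For 1.25 µM sorafenib over vehicle the difference was positive for 8 genes: RB1CC1 (0.45), WIPI1 (1.02), MAP1LC3B (0.64), NBR1 (0.58), TAX1BP1 (0.47), LAMP1 (1.04), CTSB (0.72) and CTSD (0.65). For 10 µM sorafenib over vehicle the difference was positive for 15 genes: ATG13 (0.86), ATG101 (3.41), BECN1 (1.02), AMBRA1 (1.05), WIPI1 (1.26), ATG3 (0.87), ATG4A (1.90), ATG4D (0.72), ATG5 (0.99), ATG12 (0.52), ATG16L1 (0.77), MAP1LC3B (1.99), LAMP1 (1.14), MCOLN1 (0.84) and CTSL (1.26). It was negative for 9 genes in the same comparison: ULK1 (−1.51), ULK2 (−1.62), RB1CC1 (−0.88), ATG2B (−0.59), ATG4B (−0.78), ATG7 (−0.66), ATG10 (−1.05), NBR1 (−0.42) and CALCOCO2 (−0.51). For the combination over 1.25 µM sorafenib the difference was positive for 10 genes: ATG101 (2.195), AMBRA1 (0.61), ATG3 (0.71), ATG4A (0.99), ATG5 (0.49), ATG12 (0.40), ATG16L1 (0.83), MAP1LC3B (1.23), MCOLN1 (0.61) and CTSL (0.59). It was negative for 12 genes in the same comparison: ULK1 (−1.27), RB1CC1 (−0.95), PIK3C3 (−0.40), ATG2A (−0.54), ATG2B (−0.46), ATG4B (−0.68), ATG7 (−0.75), ATG10 (−0.65), GABARAPL2 (−0.54), NBR1 (−0.84), CALCOCO2 (−0.63) and TFEB (−1.31). ULK2 had 1 to 7 counts in each HuCCT1 library and was not tested within that line, so its −1.62 measures no HuCCT1 response, and the call ended with DESeq2, with no filter on low counts and without any 1 of 5 HuCCT1 libraries.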

How the results depend on the processing

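The alternatives were followed for the 42 listed genes only, and not for the further genes. Over 3073 alternative values of listed genes called in a comparison, 2743 kept direction and call, 330 kept direction and lost the call, and 0 reversed. Counts of called genes stayed within 1.5 times of the reported one except as follows. With library size alone, HuCCT1 gave 2 at 10 µM over vehicle and 13 for the combination over 1.25 µM, where it shifted the all-gene median by 0.19 and 82.4% of all calls were higher. DESeq2's Wald test gave 7 and 5 in those comparisons and 9 for OCUG-1 at 1.25 µM over vehicle. Without the filter on low counts HuCCT1 gave 7 for the combination over 1.25 µM and 4 over vehicle, and OCUG-1 gave 7 at 1.25 µM. Fitted on the compared groups alone, HuCCT1 gave 7 at 1.25 µM, 1 at 10 µM, and 5 and 12 for the combination over 1.25 µM and over vehicle. Leaving out the HuCCT1 libraries numbered 3 of 3 arms gave 21 at 1.25 µM, 16 at 10 µM, 22 and 14 for the combination over 1.25 µM and over vehicle, and 24 between the doses. The cause was not tested.

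Leaving out 1 library at a time gave, in HuCCT1, 2 to 18 at 1.25 µM, 1 to 9 at 10 µM, 0 to 10 for the combination over 1.25 µM, 2 to 4 over vehicle and 8 to 18 between the doses. In OCUG-1 it gave 0 to 10 at 1.25 µM, 28 to 30 at 10 µM, 24 to 28 for the combination over 1.25 µM and 23 to 27 over vehicle. The difference between lines gave 2 to 16 at 1.25 µM.

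The replicate numbers were not taken as pairing the libraries, since not every same-numbered pair correlated above 0.1. In HuCCT1 9 of 18 such pairs did, with a median of 0.0945 and a range of −0.264 to 0.593, beside a median of −0.0411 for other pairs, and 5 of 12 libraries correlated best with their own number. In OCUG-1 4 of 18 did, with a median of −0.0675, and 4 of 12 libraries. This rule cannot exclude that some same-numbered libraries deviated together. In HuCCT1 library 3 was highest for 29, 30 and 29 of the 42 genes in vehicle, 1.25 µM and 10 µM. With the replicate block, HuCCT1 gave 5 for the combination over 1.25 µM. With 3 libraries a group and fewer than 10 counts for ULK2 in HuCCT1, its change there was not tested.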
